A study of Mus musculus with 16 samples.

Results

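Islet macrophages are the resident phagocytes of the pancreatic islet, and 10 genes that mark them or their activation were followed here through dispersed mouse islet cells. The genes were chosen by symbol, as Lyz2, Cd68, C1qa, C1qb, Csf1r, Adgre1, Ctss, Fcgr3, Fcer1g and Acp5, and all 10 were found among the 25105 genes listed. The study asked which genes and pathways change when GRP78, the main chaperone of the endoplasmic reticulum, is lost from islet cells, and whether inhibition of the stress kinase JNK protects them. There were 16 libraries, 4 in each of 4 groups. All cells came from islets of Grp78 flox/flox mice, were dispersed, were kept in 15 mM glucose for 72 hours and received an adenovirus. The Ad-LacZ group received virus carrying LacZ with DMSO, and the Ad-Cre group virus carrying Cre recombinase with DMSO. Each virus was also given together with JNK-IN-8, a covalent inhibitor of all JNK kinases, from the start of the culture, and these groups are called Ad-LacZ + JNK inhibitor and, for Cre, Ad-Cre + JNK inhibitor. The islets were isolated in 4 preparations (F1, M1, M2 and F2, each with a pair of animal numbers in its label), every one of which gave 1 library per group, and the labels give no ages. Adenoviral Cre can recombine the floxed allele in any cell the virus enters, macrophages included. Expression was measured as RPKM, the reads of a gene scaled to its transcript length and to the depth of the library, from poly(A) libraries of 7.7 to 25.5 M reads.

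Tissue macrophages depend on the receptor that Csf1r encodes, which binds the growth factors CSF1 and IL-34. Adgre1 encodes F4/80, the classical surface antigen of mouse macrophages, and C1qa and C1qb encode chains of C1q, the recognition protein of the classical complement pathway, which tissue macrophages secrete. These 4 genes were taken as lineage markers. Lyz2 encodes the macrophage lysozyme, Cd68 a glycoprotein of the lysosomal membrane and Acp5 tartrate-resistant acid phosphatase, an enzyme of osteoclasts and of some activated macrophages. These 3 were taken as activation-type genes. Of the remaining 3, Fcgr3 encodes a receptor for immunoglobulin G, Fcer1g the signaling chain that it shares with other Fc receptors, and Ctss cathepsin S, a protease of the antigen-presenting compartment.

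Several checks bear on the values below. Hspa5, which encodes GRP78, was higher in the libraries labelled Ad-Cre, at 1107 to 1598 RPKM against 395 to 483 RPKM in Ad-LacZ, which goes against the label of a knockdown, although a value per gene does not separate floxed exons from the rest. The study reported a knockdown by quantitative PCR on other aliquots of these samples. It also reported a partial loss of GRP78 protein by immunoblot of such cultures. Neither assay was analysed here. Directions are therefore those of libraries labelled Ad-Cre. Xist was at 27.1 RPKM or more in all libraries of preparation M2 and at 0.0283 RPKM or less in all libraries of F2, while Y-linked Ddx3y showed the opposite, so the sex letters of these preparations go against their RNA and no comparison by sex was made. The library Ad-Cre + JNK inhibitor F2 was the shallowest, and its column name had another prefix and lane code than all others. The labels do not say what these stand for. Markers of other leukocytes were low. The sum over 7 T cell markers was 0.317 and 0.181 RPKM in M2 and F2 of Ad-LacZ, 2.98 and 2.17 RPKM in the same preparations with Ad-Cre, 0.993 and 0.878 RPKM in those of Ad-LacZ + JNK inhibitor, and at most 0.737 RPKM elsewhere, so that it was highest in libraries in which several macrophage genes were high too, and its part in their values was not tested. The sum over 6 neutrophil markers was at most 1.37 RPKM with Ly6g and Retnlg at 0 in every library, and that over 5 mast cell markers at most 0.0437 RPKM. The sum over 5 B cell markers reached 3.6 RPKM, most of it Cd79a, and Cd79b was at 0.561 to 0.796 RPKM in M2 and F2 of Ad-Cre and of Ad-LacZ + JNK inhibitor and at 0.0689 RPKM or less elsewhere. The labelled cell type held, with Ins1 between 9022 and 34425 RPKM in every library. In these bulk samples, fewer macrophages and less RNA per macrophage cannot be told apart.

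The upstream sequences of Lyz2, Cd68, Ctss and Fcgr3 are shown because these 4 genes moved together under the inhibitor, and because JNK acts on the transcription factor AP-1. Of the 10 genes 7 had an entry. The sequences are from RefSeq on build GRCm38.p6, up to 250 bases before the start of transcription and without any annotated exon base, read 5′ to 3′ on the strand of the gene. Capitals mark GAGGAA, a core of the site of the myeloid factor PU.1, and TGANTCA, the site of AP-1, searched on both strands.
Lyz2 (chr10:117282322-117282522, minus strand): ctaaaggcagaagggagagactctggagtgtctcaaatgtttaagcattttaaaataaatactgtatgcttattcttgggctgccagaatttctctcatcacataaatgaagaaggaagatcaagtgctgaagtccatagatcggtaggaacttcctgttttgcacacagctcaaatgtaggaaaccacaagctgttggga
Cd68 (chr11:69666171-69666420, minus strand): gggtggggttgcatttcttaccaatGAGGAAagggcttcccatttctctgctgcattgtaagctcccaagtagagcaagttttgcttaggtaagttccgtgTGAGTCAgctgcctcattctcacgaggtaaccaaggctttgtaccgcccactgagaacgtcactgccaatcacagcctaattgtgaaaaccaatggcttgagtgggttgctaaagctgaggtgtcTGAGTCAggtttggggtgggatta
Ctss (chr3:95526536-95526785, plus strand): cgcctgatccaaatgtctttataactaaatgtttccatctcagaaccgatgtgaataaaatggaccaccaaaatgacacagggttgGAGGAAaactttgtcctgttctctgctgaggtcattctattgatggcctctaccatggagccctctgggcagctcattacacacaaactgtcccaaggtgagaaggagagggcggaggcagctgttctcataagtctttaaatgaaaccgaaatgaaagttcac
Fcgr3 (chr1:171059404-171059626, minus strand): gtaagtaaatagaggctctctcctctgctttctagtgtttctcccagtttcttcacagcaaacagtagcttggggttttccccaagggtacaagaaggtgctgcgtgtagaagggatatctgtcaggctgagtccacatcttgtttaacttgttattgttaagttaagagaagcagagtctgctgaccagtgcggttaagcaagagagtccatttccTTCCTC

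GAGGAA was found in Cd68, Ctss and Fcgr3 and in none of the letters shown for Lyz2, and 23.3% of all 32851 promoters of 250 bases hold it. Among the other genes with an entry, C1qb held it too, while Fcer1g and Acp5 did not. The 4 genes shown were chosen by their response in these data, so these finds are descriptions. TGANTCA was found in Cd68 alone among the 4, at 2 places that do not overlap GAGGAA, and 6.75% of promoters hold it. The Fcgr3 sequence lies inside the gene as GENCODE annotates it, since a longer transcript begins further upstream. On GRCm38 (GENCODE vM21), C1qa, C1qb and C1qc lie side by side on chromosome 4, and Lyz2 lies beside Lyz1, its near-identical copy, on chromosome 10. Of windows along the longest Lyz2 transcript, 15.4% of those of 50 bases and 5.96% of those of 75 bases occur in Lyz1. The reads of the study were longer than these windows. The share of them that cannot be assigned to either gene with certainty was not determined. Csf1r overlaps Hmgxb3 on the opposite strand and Acp5 overlaps 6530413G14Rik likewise, and it is not stated whether counting used strand.

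In the Ad-LacZ libraries the macrophage genes spanned a wide range of levels. Per length, C1qa was highest at 31.1 ± 2.56 RPKM (SD, n = 4), and Lyz2 followed at 29.5 ± 4.94 RPKM (SD, n = 4), the ranges of both overlapping. Ctss stood at 12.8 ± 1.16 RPKM (SD, n = 4), apart from its neighbors in the order. Cd68 at 6.96 ± 1.14 RPKM and Fcer1g at 6.15 ± 0.84 RPKM (SD, n = 4 each) overlapped, and so did Fcgr3, Csf1r and Acp5 at means of 1.87, 1.56 and 1.48 RPKM. Adgre1 and C1qb were lowest, each at a mean of 0.76 RPKM, and the highest C1qb library overlapped Acp5. C1qb rested on few reads, 31, 15, 19 and 3 in F1, M1, M2 and F2, and its levels are correspondingly imprecise. The chains of C1q differed widely although the protein holds all 3 of them. In F1, M1 and M2 the level of C1qa was 24.6, 38.9 and 41.1 times that of C1qb, in the libraries labelled Ad-Cre it was 8.76 to 19.4 times, and no ratio is given for F2 of Ad-LacZ.

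**Figure D1:**
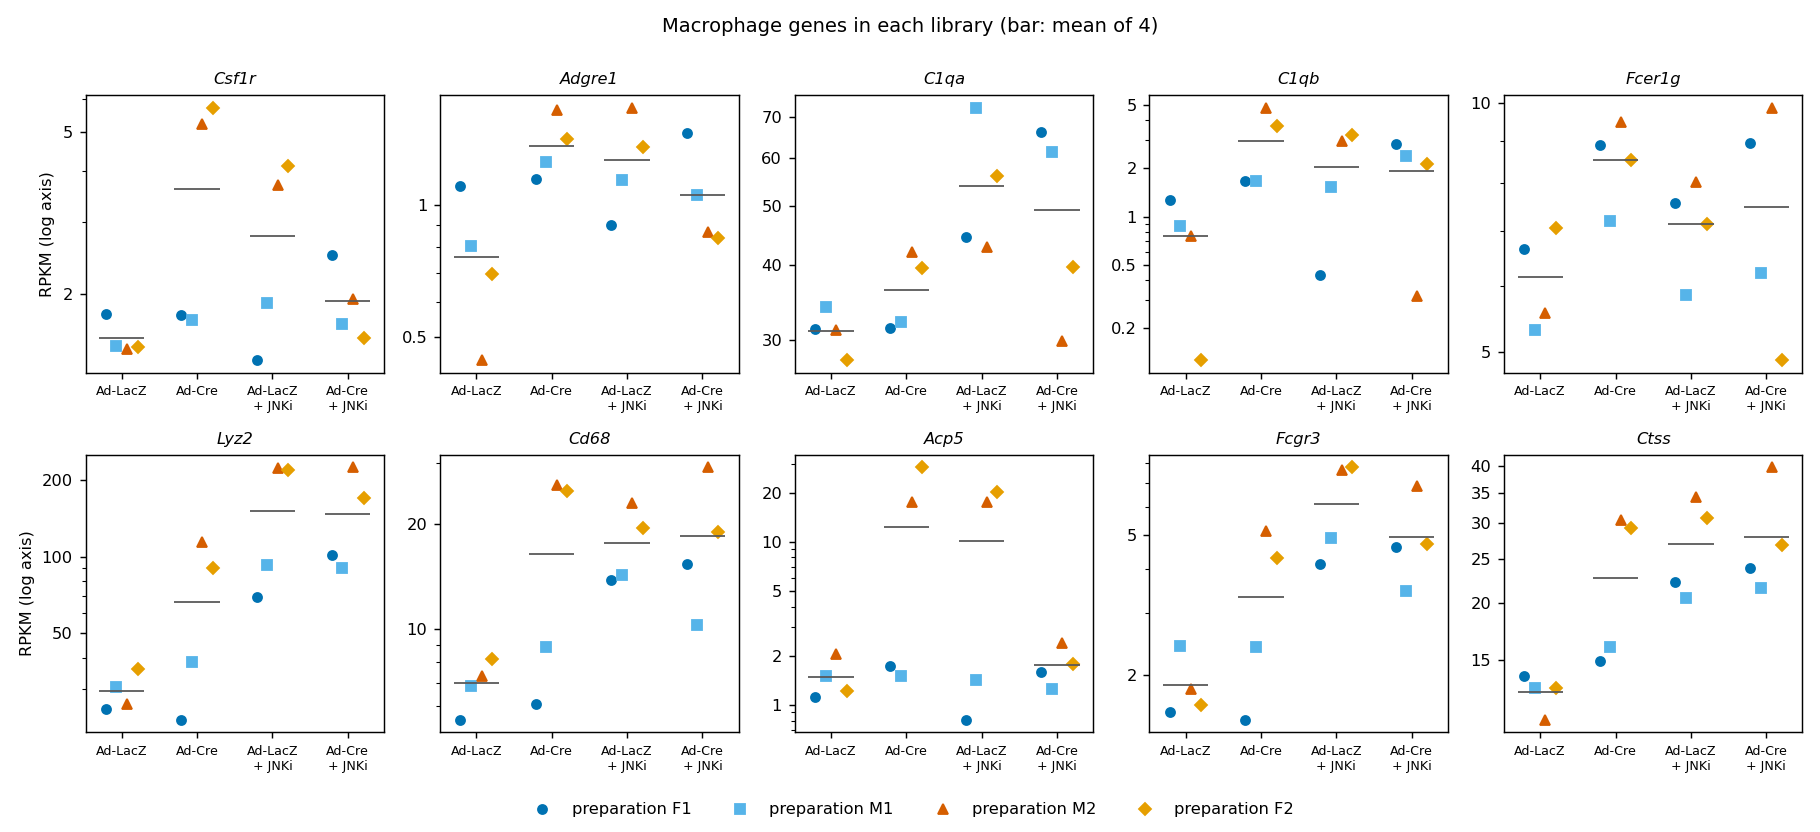
RPKM of the 10 macrophage genes on log axes in each library, by group (JNKi, JNK inhibitor), with preparations F1, M1, M2 and F2 as separate symbols and the mean of 4 libraries as a bar. Lyz2 and Cd68 were higher in each library of Ad-LacZ + JNK inhibitor than in each Ad-LacZ library, while Acp5 was at 17.6 RPKM or more in preparations M2 and F2 of Ad-Cre and of Ad-LacZ + JNK inhibitor and at 2.40 RPKM or less elsewhere.

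With the JNK inhibitor alone, 4 of the 10 genes were called higher in the Ad-LacZ cells, by a fit that left the preparation out. They were the activation-type genes Lyz2 and Cd68 together with Fcgr3 and Ctss. With the preparation as a block Cd68 alone was still called, as given further on. Lyz2 was at 25.1, 30.6, 26.3 and 36.0 RPKM in preparations F1, M1, M2 and F2 of Ad-LacZ and at 69.1, 92.9, 224 and 219 RPKM with the inhibitor. Each preparation was higher with the inhibitor, from 2.75-fold in F1 to 8.51-fold in M2. The log2 fold change of Lyz2 was 2.15 (SE 0.31), with an adjusted p of 0.0411 from limma, the test behind every adjusted p below, after Benjamini-Hochberg adjustment over 11657 genes. Lyz1 moved beside it, from 1.74 to 2.33 RPKM in Ad-LacZ to between 3.74 and 22.1 RPKM with the inhibitor.
Cd68 was at 5.48, 6.84, 7.33 and 8.20 RPKM in Ad-LacZ and at 13.8, 14.2, 22.9 and 19.4 RPKM with the inhibitor. Of these 4 genes it had the most even rise, between 2.08-fold and 3.13-fold in every preparation, and its log2 fold change was 1.2 (SE 0.13, adjusted p = 0.0161). Fcgr3 was at 1.57, 2.42, 1.83 and 1.64 RPKM in Ad-LacZ and at 4.13, 4.90, 7.63 and 7.76 RPKM with the inhibitor. The groups did not overlap, and the log2 fold change of Fcgr3 was 1.27 (SE 0.15, adjusted p = 0.0215). Ctss was at 13.8, 13.0, 11.1 and 13.1 RPKM in Ad-LacZ and at 22.2, 20.6, 34.2 and 30.9 RPKM with the inhibitor, again without overlap, with a log2 fold change of 0.99 (SE 0.14, adjusted p = 0.0411).
Of all genes tested in this comparison 23 passed the adjusted p, 0.197%, and 17 of them were higher, 0.146%. On RPKM as deposited, without scaling between libraries, none of the 10 genes passed, and with all 16 libraries in the fit or without the filter on low values 1 did. By the criteria of the study, p under 0.05 without adjustment and a fold change above 1.2, 7 of the 10 genes were higher, against 2.69% of all genes. Adgre1, at 0.442 to 1.1 RPKM in Ad-LacZ and 0.902 to 1.67 RPKM with the inhibitor, passed the filter through the inhibitor libraries. The count of 7 is therefore a description.

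No lineage marker passed the test, and whether lineage and activation-type genes differed in their response was not tested. C1qa was at 31.4, 34.1, 31.2 and 27.8 RPKM in Ad-LacZ and at 44.4, 72.7, 42.8 and 56.1 RPKM with the inhibitor. Its groups did not overlap and its log2 fold change was 0.75 (SE 0.19), but limma's adjusted p was 0.34. Csf1r was at 1.38, 1.90, 3.70 and 4.12 RPKM with the inhibitor, which is lower than Ad-LacZ in F1 and more than 2.5-fold higher in M2 and F2 (log2 fold change 0.47 ± 0.19 (SE), adjusted p = 0.752). Adgre1 (log2 fold change 0.35), C1qb (0.69) and Fcer1g (0.19) had adjusted p of 0.77, 0.875 and 0.999 in limma. In all, 5 of the 10 genes were higher in every inhibitor library than in every Ad-LacZ library, against 1.79% of all genes, and each of the 5 had p = 0.0286 by exact permutation of the libraries, two-sided. That is the smallest p that 4 libraries against 4 allow, and 40 such tests were made over genes and comparisons.
With the preparation as a block, Cd68 alone of the 10 genes kept an adjusted p under 0.05 (limma, 0.0386), while Lyz2 and Fcgr3 stood at 0.0549 and Ctss at 0.0882; 29 genes were then called higher, 0.249%. Without any 1 of the preparations F1, M1, M2 or F2, none of the 10 genes passed the adjusted p, the lowest being 0.1 for Fcgr3 without M1, although the log2 fold change of Lyz2 stayed between 1.87 and 2.35 and that of Cd68 between 1.11 and 1.29.

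**Figure D2:**
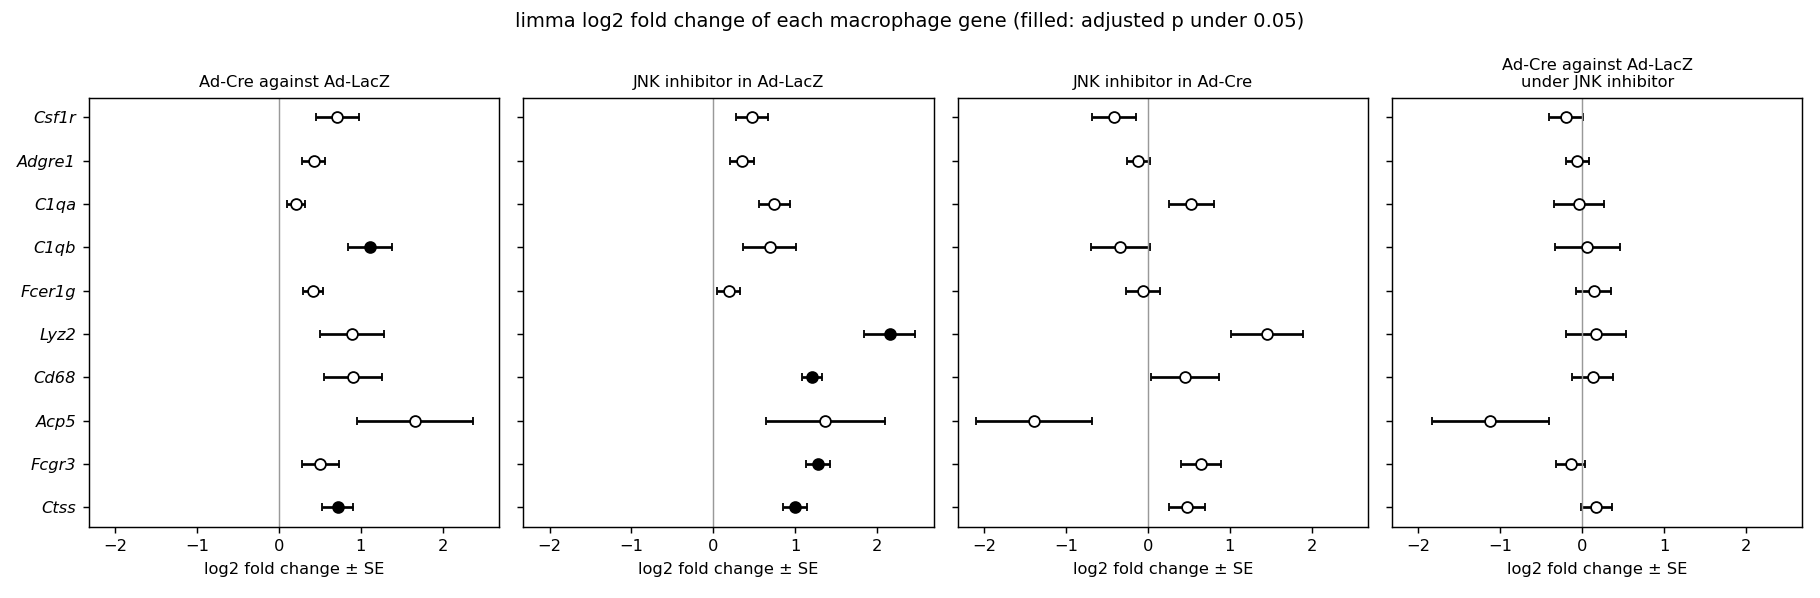
Log2 fold change from limma with its SE for each macrophage gene (rows) in the 4 comparisons (panels), 4 libraries against 4, with filled points for an adjusted p under 0.05. Filled points are C1qb and Ctss for Ad-Cre against Ad-LacZ and Lyz2, Cd68, Fcgr3 and Ctss for the inhibitor in Ad-LacZ, and none for the inhibitor in Ad-Cre or for Ad-Cre under inhibitor.

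Between the libraries labelled Ad-Cre and Ad-LacZ all 10 genes had positive log2 fold changes, and C1qb and Ctss passed the adjusted p. With 16.5% of all 11590 genes called in this comparison and 7.14% called higher, 2 of 10 is near the background. C1qb was at 1.28, 0.88, 0.76 and 0.13 RPKM in Ad-LacZ and at 1.68, 1.66, 4.80 and 3.68 RPKM in the libraries labelled Ad-Cre. The log2 fold change of C1qb was 1.11 (SE 0.27, adjusted p = 0.0264). C1qb passed the filter of 1 RPKM through the libraries labelled Ad-Cre, since 1 of 4 Ad-LacZ libraries exceeded it. With a filter of 0.1 RPKM, which every Ad-LacZ library passed, the adjusted p of C1qb was 0.0343 in limma, and without a filter 0.059. Ctss was at 15.0, 16.1, 30.6 and 29.3 RPKM in the libraries labelled Ad-Cre, with a log2 fold change of 0.72 (SE 0.19, adjusted p = 0.0362). C1qb, Ctss, Adgre1 and Fcer1g did not overlap between the groups, with exact permutation p of 0.0286 each, against 11.8% of all genes that were higher without overlap. Of these 4, C1qb and Adgre1 passed the filter through the group in which they were high, so their lack of overlap is a description.
Most of the remaining genes were high in preparations M2 and F2 and close to Ad-LacZ in F1 and M1. Csf1r was at 1.78, 1.73, 5.22 and 5.73 RPKM in F1, M1, M2 and F2 of the libraries labelled Ad-Cre (log2 fold change 0.71 ± 0.26, adjusted p = 0.0954). Lyz2 had 22.9, 38.4, 114 and 90.0 RPKM, and the library of F1 lay below that of the same preparation in Ad-LacZ (log2 fold change 0.89 ± 0.39, adjusted p = 0.149). Cd68 had 6.08, 8.84, 25.8 and 24.9 RPKM, which is 1.11-fold Ad-LacZ in F1 and 3.52-fold in M2 (log2 fold change 0.90 ± 0.35, adjusted p = 0.112).
The block for the preparation changed these calls: 8 of the 10 genes, all but C1qa and Fcgr3, then had adjusted p between 0.0146 and 0.0464 in limma, against 34.0% of all genes called and 15.8% called higher. By the criteria of the study, with a fold change above 1.5, 6 of the 10 were higher, against 5.09% of all genes. C1qb and Adgre1 are among the 8, and C1qb is among the 6. Both passed the filter through the libraries labelled Ad-Cre, so these counts are descriptions. Without any 1 of the preparations F1, M1, M2 or F2 none of the 10 passed the adjusted p without the block, with 0.0571 for Ctss without F1 the lowest, and on the full set 0 passed without the filter on low values and 1 with all 16 libraries in the fit.

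When the inhibitor was added to cells labelled Ad-Cre, none of the 10 macrophage genes passed the adjusted p in limma or by voom on recovered reads. Of 11503 genes 2 passed it (0.0174%), and Lyz2 and Fcgr3, 2 of the 10, were past an unadjusted p under 0.05 in both, as were 8.03% of all genes in limma and 8.17% by voom. Lyz2 was at 101, 90.2, 225 and 171 RPKM with the inhibitor, above the library labelled Ad-Cre of the same preparation in all 4, by 1.9-fold to 4.43-fold. Its log2 fold change was 1.46 (SE 0.44) with limma's adjusted p of 0.389, and 0.0194 with the preparation as a block, when 6.76% of all genes were called. It was the only one of the 10 genes called with the block.
The other genes went different ways by preparation. Cd68 was at 15.4, 10.3, 29.1 and 19.0 RPKM, 2.53-fold the library labelled Ad-Cre in F1 and 0.761-fold in F2. Csf1r was at 2.50, 1.69, 1.95 and 1.56 RPKM, so that M2 and F2 lay at 0.373-fold and 0.273-fold of their Ad-Cre libraries while F1 lay at 1.4-fold. The log2 fold changes were 0.45 (SE 0.41) for Cd68 and -0.41 (SE 0.27) for Csf1r, with limma's adjusted p of 0.877 and 0.803.
Between the 2 groups with inhibitor, none of the 10 genes passed the adjusted p or an unadjusted p under 0.05, in limma or by voom. Of all 11598 genes 20.6% passed after adjustment and 36.1% before it in limma. Lyz2 stood at 151 ± 81.7 RPKM in Ad-LacZ + JNK inhibitor and at 147 ± 63.1 RPKM in Ad-Cre + JNK inhibitor (SD, n = 4 each), and the difference on the log2 scale was 0.17 (SE 0.37, adjusted p = 0.779).
The interaction of virus and inhibitor, fitted over all 16 libraries, was negative for all 10 genes. None of 12274 genes passed the adjusted p in limma (0.0%), with or without the block, and 384 genes were past an unadjusted p under 0.05 (3.13%), 177 of them negative (1.44%). By voom none of the 10 passed after adjustment and 4 did before it, as did 2.82% of all genes. Among the 10, Acp5 (log2 -2.77, SE 1.11), Csf1r (log2 -0.90, SE 0.36) and Adgre1 (log2 -0.47, SE 0.20) had unadjusted p of 0.0252, 0.0251 and 0.0326 in limma, and all had an adjusted p of 0.999.

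Lineage and activation-type genes were then set against each other within each library. Whether each gene follows the number of macrophages was not tested, and C1qa had a Pearson's r of 0.176 with Csf1r over the 16 libraries. The ratio of Lyz2 to Csf1r was 14.1, 20.4, 17.9 and 24.2 in F1, M1, M2 and F2 of Ad-LacZ and 12.8, 22.2, 21.9 and 15.7 in the libraries labelled Ad-Cre. It was 50.1, 48.8, 60.5 and 53.3 in Ad-LacZ + JNK inhibitor and 40.6, 53.2, 116 and 109 in Ad-Cre + JNK inhibitor. All 8 libraries with inhibitor thus lay above all 8 without it. The 2 groups without inhibitor overlapped although Lyz2 itself reached 114 RPKM in the library labelled Ad-Cre of M2. This split held with Csf1r as the lineage marker but not with C1qa. The ratio of Lyz2 to C1qa was 0.8 to 1.29 in Ad-LacZ and 0.728 to 2.72 in the libraries labelled Ad-Cre. It was 1.28 to 5.22 in Ad-LacZ + JNK inhibitor and 1.47 to 7.52 in Ad-Cre + JNK inhibitor, so that libraries with and without inhibitor overlapped. The ratio of Cd68 to Csf1r behaved less cleanly, at 3.07 to 5.51 in Ad-LacZ, 3.42 to 5.1 in the libraries labelled Ad-Cre, 4.71 to 9.97 in Ad-LacZ + JNK inhibitor and 6.05 to 14.9 in Ad-Cre + JNK inhibitor.
Acp5 did not follow the other activation-type genes. Its ratio to Csf1r was 0.629 to 1.4 in Ad-LacZ and 0.635 to 1.23 in Ad-Cre + JNK inhibitor, and between 3.37 and 4.99 in M2 and F2 of both other groups. These ratios were chosen after the values were seen and are given without a test.

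**Figure D3:**
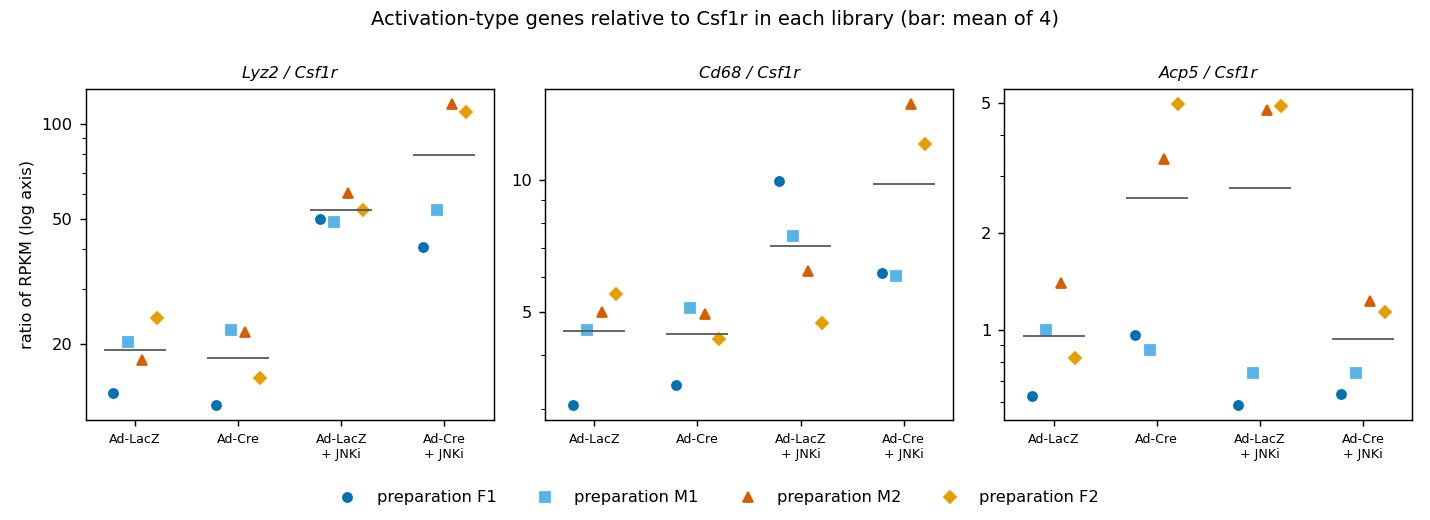
Ratio of the RPKM of Lyz2, Cd68 and Acp5 to that of Csf1r on log axes in each library, by group (JNKi, JNK inhibitor), with preparations as symbols and the mean of 4 libraries as a bar. The ratio of Lyz2 to Csf1r was 12.8 to 24.2 in the 8 libraries without inhibitor and 40.6 to 116 in the 8 with it.

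Acp5 depended on the preparation more than any other of the 10 genes, by the share of its sum of squares given further on. It was at 1.12, 1.51, 2.06 and 1.22 RPKM in F1, M1, M2 and F2 of Ad-LacZ, and at 1.73, 1.51, 17.6 and 28.6 RPKM in the libraries labelled Ad-Cre. With the inhibitor it was at 0.81, 1.41, 17.6 and 20.3 RPKM in Ad-LacZ cells and at 1.59, 1.26, 2.40 and 1.79 RPKM in cells labelled Ad-Cre. Preparations M2 and F2 were thus 8.57-fold and 23.3-fold higher with Ad-Cre, 8.56-fold and 16.6-fold higher with the inhibitor, and near the Ad-LacZ level with both, while F1 and M1 stayed between 0.81 and 1.73 RPKM throughout. No comparison passed the adjusted p without the block (limma, 0.141 for Ad-Cre against Ad-LacZ, 0.92 for the inhibitor in Ad-LacZ and 0.699 in Ad-Cre), and with the block Ad-Cre against Ad-LacZ had 0.0413. The first 2 of these comparisons share the Ad-LacZ libraries.
Genes of osteoclasts, which digest bone and are relatives of macrophages, were in part high in the same libraries. The genes named next were chosen after their values were seen. Ctsk, which encodes the collagen-degrading cathepsin K, was at 16.0 and 27.0 RPKM in M2 and F2 of the libraries labelled Ad-Cre and at 23.5 and 15.8 RPKM in those of Ad-LacZ + JNK inhibitor, against 2.96 and 1.83 RPKM in Ad-LacZ and 5.05 and 2.74 RPKM in Ad-Cre + JNK inhibitor. Mmp9, a gelatinase, was at 15.8, 27.6, 10.6 and 18.1 RPKM in those 4 libraries and at 0.187 RPKM or less in the other 12. Dcstamp, needed for the fusion of osteoclast precursors, reached 0.873 and 2.01 RPKM in M2 and F2 labelled Ad-Cre and was at 0.0742 RPKM or less in each library of Ad-LacZ and of Ad-Cre + JNK inhibitor. Atp6v0d2, a proton pump subunit, departed from this. It was at 7.83 and 7.43 RPKM in M2 and F2 labelled Ad-Cre and at 11.2 and 8.21 RPKM in those of Ad-LacZ + JNK inhibitor, but also at 8.14 and 3.96 RPKM in those of Ad-Cre + JNK inhibitor, where Acp5 was near its Ad-LacZ level. Calcr, the calcitonin receptor of mature osteoclasts, was at 0.0756 RPKM or less in every library. Of the 8 osteoclast genes 3 passed the filter on low values for Ad-Cre against Ad-LacZ and for the inhibitor in Ad-LacZ, all 3 were higher in both, and none passed the adjusted p.
Markers of stellate cells and fibroblasts moved with these libraries. The sum over 6 such markers was 23.5, 32.4, 105.4 and 54.2 RPKM in F1, M1, M2 and F2 of Ad-LacZ, 21.8, 31.4, 676 and 175 RPKM in the libraries labelled Ad-Cre, 43.6, 104, 507 and 317 RPKM in Ad-LacZ + JNK inhibitor and 26.6, 25.6, 145 and 108 RPKM in Ad-Cre + JNK inhibitor. Slc2a2, the glucose transporter gene of beta cells, was lowest in M2 and F2 labelled Ad-Cre with or without inhibitor, at 18.3 and 32.7 RPKM without and 14.9 and 21.7 RPKM with it, against 73.2 and 76.8 RPKM in Ad-LacZ. It was at 81.7 and 99.3 RPKM in M2 and F2 of Ad-LacZ + JNK inhibitor, where Acp5 was high. Whether these values reflect the number of such cells or the RNA of each was not tested. Their part in the values of the macrophage genes was not tested either.

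**Figure D4:**
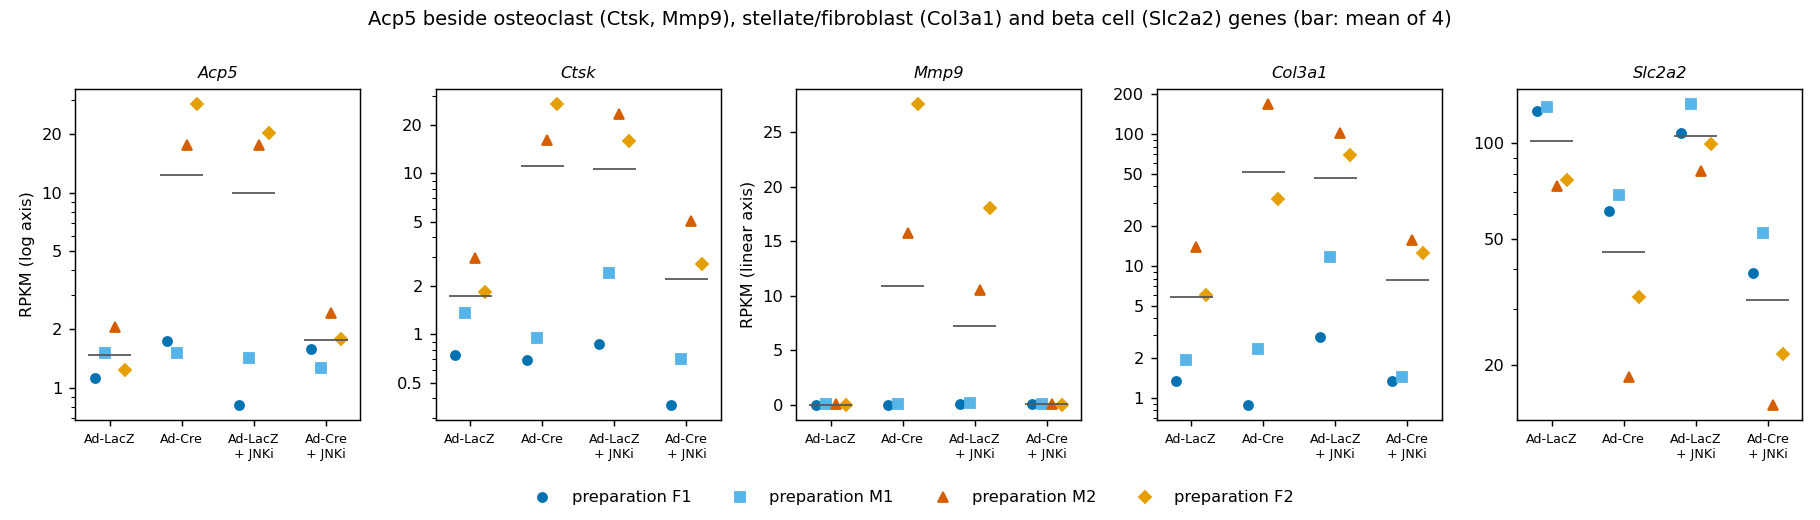
RPKM of Acp5, Ctsk, Mmp9, Col3a1 and Slc2a2 in each library, by group (JNKi, JNK inhibitor), on log axes except a linear axis for Mmp9, with preparations as symbols and the mean of 4 libraries as a bar. Acp5, Ctsk, Mmp9 and Col3a1 were highest in preparations M2 and F2 of Ad-Cre and of Ad-LacZ + JNK inhibitor.

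Further macrophage markers were examined by list. A gene near 1 RPKM enters the test only through the group in which it is high, so the counts of higher genes among those tested, here and for the lists that follow, are descriptions. Of 26 such markers, 9 passed the filter for the inhibitor in Ad-LacZ, all 9 of them upward, and their median change on the log2 scale was 0.69 against -0.02 over all genes. Tyrobp, the signaling adaptor DAP12, passed the test: it was at 4.56, 5.53, 4.30 and 5.38 RPKM in Ad-LacZ and at 8.84, 9.65, 17.2 and 16.1 RPKM with the inhibitor (log2 fold change 1.18, adjusted p = 0.0407 without and 0.0831 with the block). Its groups did not overlap.
Between the libraries labelled Ad-Cre and Ad-LacZ, 8 of 9 tested markers were higher. C1qc (log2 fold change 0.91), Mpeg1 (0.75), which encodes the pore-forming perforin-2, and Tyrobp (0.99) had adjusted p of 0.0349, 0.0401 and 0.0494 in limma, and 1 marker fell. That was Lyve1, a hyaluronan receptor of some resident macrophages and of lymphatic endothelium, which was at 6.45, 6.52, 9.13 and 9.45 RPKM in Ad-LacZ and at 1.46, 1.70, 5.48 and 2.74 RPKM in the libraries labelled Ad-Cre. It fell by 1.31 on the log2 scale (adjusted p = 0.00991). With the preparation as a block 6 markers rose and Lyve1 fell, when 15.8% of all genes were called higher and 18.1% lower. For the inhibitor in Ad-LacZ no marker passed with the block. Under inhibitor the contrast was wider, since Lyve1 was at 12.8 to 13.1 RPKM in Ad-LacZ + JNK inhibitor and at 1.2 to 1.95 RPKM in Ad-Cre + JNK inhibitor (log2 -2.31, adjusted p = 5.93e-05). Its direction was opposite to that of the other markers that passed. For the lists that follow, the shares of all genes called higher are the same. They were 7.14% without and 15.8% with the block for Ad-Cre against Ad-LacZ. For the inhibitor in Ad-LacZ they were 0.146% and 0.249%.

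Of the ligands of the Csf1r product, Csf1 was the more abundant. Csf1 was at 28.6 to 176 RPKM over the 16 libraries, highest in M2 labelled Ad-Cre, while Il34 was at 0.0975 to 1.75 RPKM. Csf2, which encodes GM-CSF, a factor with a receptor of its own, was at 0.245 RPKM or less. Of 10 genes for ligands and myeloid transcription factors 4 passed the filter for Ad-Cre against Ad-LacZ, all were higher, and Cebpb, an activator of myeloid genes, passed the test (log2 fold change 0.63, adjusted p = 0.0169), and with the block Cebpa passed as well (0.70, adjusted p = 0.0384). Spi1, which encodes PU.1, had 0.496 to 0.581 RPKM in Ad-LacZ and 0.624, 0.545, 3.61 and 2.66 RPKM in F1, M1, M2 and F2 labelled Ad-Cre, and it was at 0.700, 0.720, 2.12 and 1.95 RPKM in Ad-LacZ + JNK inhibitor. F1 and M1 labelled Ad-Cre were thus near the Ad-LacZ level. For the inhibitor in Ad-LacZ, none of 4 tested genes passed.
Of 11 complement genes, 1 passed in each of these comparisons without the block. It was C1qc for Ad-Cre against Ad-LacZ and C3ar1, the receptor of the fragment C3a, for the inhibitor in Ad-LacZ (log2 fold change 0.75, adjusted p = 0.0407 without and 0.0549 with the block), and 6 of 6 and 5 of 5 tested genes were higher. Of 11 genes of Fc receptor signaling 3 were tested in each, all 3 were higher, and Tyrobp alone passed without the block. With the block, C1qc, C3, C3ar1 and Cfb of the complement genes and Tyrobp and Lyn of the Fc genes passed for Ad-Cre against Ad-LacZ (adjusted p of 0.0119 to 0.0264 in limma), and none of either list for the inhibitor in Ad-LacZ.
Of 7 genes of antigen presentation by MHC class II, Cd74, the invariant chain (log2 fold change 1.48, adjusted p = 0.0271), and H2-Eb1 (0.81, 0.046) rose with Ad-Cre among 3 tested. Cd74 was at 4.37, 2.14, 8.76 and 10.6 RPKM in the libraries labelled Ad-Cre and at 3.06, 1.30, 1.29 and 1.01 RPKM in Ad-Cre + JNK inhibitor, where limma's adjusted p against Ad-Cre was 0.393.
The 16 genes of inflammatory and of alternative activation ranged widely in level. Ptgs2, which encodes the prostaglandin synthase COX-2, was at 2.31 to 53.7 RPKM, and Arg1, the arginase of alternative activation, at 4.21 to 13.1 RPKM over the 16 libraries. Il6 was at 0.166, 0.786, 2.44 and 0.986 RPKM in Ad-LacZ and at 0.318, 0.484, 6.58 and 3.51 RPKM in the libraries labelled Ad-Cre, and it reached 7.57 RPKM in M2 of Ad-Cre + JNK inhibitor. Of the list 2 genes were tested for Ad-Cre against Ad-LacZ and 3 for the inhibitor in Ad-LacZ, and none passed. Arg1 rose for Ad-Cre against Ad-LacZ under inhibitor (log2 fold change 0.87, adjusted p = 0.011), the only one of 4 tested genes to pass, when 10.1% of all genes were called higher. All 5 markers of alpha and delta cells were higher in this comparison too (median 0.58), none past the adjusted p. Which cells the Arg1 RNA came from was not tested. Others were low, with Tnf at 0.52 RPKM or less, Nos2 at 0.283 RPKM or less and Chil3 and Retnla at 0.0727 RPKM or less in every library. Il1b was at 0.768 to 1.42 RPKM in Ad-LacZ and at 0.22 to 0.655 RPKM in the libraries labelled Ad-Cre.

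Lysosomal genes matter here because Cd68 and Ctss belong to the same organelle and all cells have it. Of 20 such genes 19 were tested, 18 were higher for the inhibitor in Ad-LacZ (median 0.32 on the log2 scale), and Ctsz, a cathepsin, passed the test (0.71, adjusted p = 0.0245 without and 0.0386 with the block). For Ad-Cre against Ad-LacZ 14 of 19 were higher and Ctsd (1.2), Grn (0.79), Ctsz (0.65) and Npc2 (0.66) passed with adjusted p of 0.00314, 0.00792, 0.0145 and 0.039 in limma, and 6 did with the block. In the cells labelled Ad-Cre, 18 of 19 were higher with the inhibitor (median 0.47 on the log2 scale). None passed there without the block and 10 did with it, when 4.66% of all genes were called higher. Of 14 genes of lipid- and lysosome-laden macrophages 11 were tested for the inhibitor in Ad-LacZ, all 11 were higher with a median of 0.86, and none passed. Nearest was Spp1, osteopontin, which duct cells express as well: it was at 109, 93.0, 221 and 219 RPKM in Ad-LacZ and at 332, 481, 657 and 813 RPKM with the inhibitor (log2 fold change 1.85, adjusted p = 0.0732 without and 0.0372 with the block). Apoe had a log2 fold change of 0.86 there (adjusted p = 0.165 without and 0.049 with the block). For Ad-Cre against Ad-LacZ none of 11 tested genes of this list passed without the block, and Apoe, Cd63 and Lgals3 did with it (adjusted p of 0.0239 to 0.0366 in limma).

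Over the 16 libraries the 10 genes fell into sets that did not match the lineage and activation-type division. Lyz2, Cd68, Ctss and Fcgr3 varied together, with Pearson's r of 0.902 to 0.965 between any 2 of them, on log2 values scaled between libraries. Acp5 was closest to Csf1r (r = 0.912) and C1qb to Csf1r (0.759) and Adgre1 (0.748), while C1qa had its highest r of 0.531 with Adgre1 and Fcer1g its highest of 0.588, also with Adgre1. These values share libraries, depth and cell composition and are descriptions. The group accounted for 75.1%, 76.8% and 77.2% of the sum of squares of Lyz2, Ctss and Fcgr3, and for 30.0% of that of Acp5, where the preparation accounted for 37.6%.
The gene most like the mean pattern of the 4 lineage markers was C1qc (r = 0.945), followed by Dnase2a (0.831), Paox (0.83), Tyrobp (0.825), H6pd (0.818), Mpeg1 (0.81), Tap2 (0.797), Aldh2 (0.786) and Clic1 (0.784). The genes most like the mean pattern of the 3 activation-type genes were Nckap1l (0.965), Arhgap25 (0.957), Vsir (0.949), Myo1f (0.946), Itgb2 (0.945), Igsf6 (0.945), Cd84 (0.945), Itgam (0.942), Dhrs3 (0.94) and Atp6v0d2 (0.937), all over 16 libraries. Itgb2 and Itgam encode the subunits of the integrin Mac-1, and Atp6v0d2 is also on the osteoclast list.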

How the data were processed

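The authors deposited RPKM values per gene from paired-end poly(A) libraries. GRCm38 is named in the submitters' processing notes, and the counter and gene lengths are not given in the sources used here. A further 3 columns that no label names were not used. Depth was read from steps of whole reads: 92.3% of low values lay within 0.05 of a whole number with GENCODE vM21 exon lengths. The recovered read counts bear on counting error only, while SD and SE measure the spread between libraries. The 10 genes and all gene lists were chosen with earlier results of these data known.

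RPKM values were scaled by TMM factors (trim 30% of ratios and 5% of levels, no weights), and log2(RPKM + 1) was fitted with limma 3.58.1 (R 4.3.3, eBayes with trend) over genes that exceeded 1 RPKM in 4 or more of the libraries fitted, with Benjamini-Hochberg adjustment over all of them. All 10 genes passed this filter in every comparison. Fold changes on this scale understate those of low genes. Levels in the text are RPKM as deposited. The study's criteria use a fold change above 1.5 for virus and 1.2 for inhibitor. Tables and exact permutation tests used Python 3.11.15 and scipy 1.17.1. The fit without the block was tested on data simulated for Ad-Cre against Ad-LacZ. Those data had independent libraries and no effect of the preparation, so that test does not bear on the pairing. Preparations carry different animal numbers, each library stands for 1 preparation, and p-values measure the spread between these samples.

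Named besides the 10 genes are at most 4 members per list and comparison, by smallest p in limma, the 10 genes most alike in pattern by Pearson's r, of which 1 is not reported here, and Hspa5. Chosen outside this rule, after their values were seen, were Ins1, Cd79a, Ly6g, Retnlg, Slc2a2, Ctsk, Csf1, Lyz1, C1qc, Xist, Ddx3y, Dcstamp, Calcr, Mmp9 and Col3a1 beside Acp5, Cd79b, Il34, Csf2, Spi1, Il6, Tnf, Nos2, Chil3, Retnla and Il1b. Libraries of the same preparation carry the same animal numbers in the labels, so these pair them; residuals of same-numbered libraries correlated at 0.131 to 0.826 over the 4 comparisons, and those of other pairs had means of -0.23 to -0.129. The alternatives varied the pseudocount (0.1), the filter (none, or 0.1 RPKM), the scaling (none, so that values stayed as deposited, or quantiles), the libraries fitted (all 16, or 1 preparation fewer), the trend of eBayes (none) and the block (preparation). Added after the data were seen were voom on the recovered whole reads, with and without the block, and leaving out the library Ad-Cre + JNK inhibitor F2.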

Additional observations from a re-analysis of the deposited data

Results flagged for a closer look

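Among 40 groups of 4 libraries, 10 genes in 4 groups, Dixon's test singled out 1 library. Csf1r in Ad-LacZ was at 1.79 RPKM in preparation F1, farther from the other 3 libraries, at 1.47 to 1.5 RPKM, than these were from each other. Chance gives such a result in about 1 of 20 groups.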

How the results depend on the processing

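Of 781 values and counts under alternative processing, 684 were taken as unchanged. Among 709 values, 631 kept their direction and their side of the threshold. Among 72 counts, 53 were equal to the main count or close to it in ratio. The number of the 10 genes past the adjusted p for Ad-Cre against Ad-LacZ, 2, became 0 without the filter, 1 with all 16 libraries in 1 fit, 8 with the replicate block, 8 with voom and the block, and 0 without any of the replicates F1, M1, M2 and F2 (range 0 to 0). For the inhibitor in Ad-LacZ, 4 became 1 without the filter, 2 with a filter at 0.1 RPKM, 0 with RPKM as deposited, 1 with all 16 libraries, 1 with the replicate block and 0 without any replicate (range 0 to 0), and it was 3 with voom and the block and 4 with voom. For the inhibitor in Ad-Cre, 0 became 1 with the replicate block and with voom and the block, namely Lyz2. The block is printed beside those results and changed no other call of the 10 genes. Fewer samples in the fits without a replicate, and more genes tested without the filter, are part of these alternatives; otherwise the cause was not tested.

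Values that changed sign numbered 18, and none of them was past the adjusted p. For the inhibitor in Ad-Cre, leaving out a replicate moved the log2 fold change of C1qb to between -0.66 and 0.19 and that of Fcer1g to between -0.19 and 0.11, and Fcer1g was 0.010 with voom and the block and 0.13 without the library Ad-Cre + JNK inhibitor F2. For Ad-Cre against Ad-LacZ under inhibitor, C1qb was -0.049 with RPKM as deposited, -0.19 with voom, and -0.41 to 0.55 without a replicate. Lyz2 was -0.23 and Adgre1 0.037 with quantile normalization. Without a replicate Cd68 was -0.021 to 0.28, C1qa -0.23 to 0.065, Csf1r -0.46 to 0.022 and Adgre1 -0.21 to 0.041, and without the library Ad-Cre + JNK inhibitor F2 C1qa was 0.081 and Adgre1 0.0100. With RPKM as deposited the median of all genes moved by -0.14 in both comparisons that include Ad-Cre + JNK inhibitor. C1qb, with as few as 3 reads in a library, is limited by depth.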
